A study of Homo sapiens with 12 samples.

Results

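The ephrin, Eph receptor, semaphorin and plexin genes were followed through a genotype and drug experiment in A375, an established human melanoma cell line. Members were chosen by symbol alone, as every gene named as an Eph receptor of class A or B, an ephrin, a semaphorin of classes 3 to 7 or a plexin, which gave 51 of the 56609 symbols of the count table. They were 5 ephrin-A and 3 ephrin-B ligands, 9 EphA and 5 EphB receptors, 7 secreted class 3 semaphorins, 12 transmembrane semaphorins of classes 4 to 6, 1 class 7 semaphorin and 9 plexins.

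The study set wild-type A375 cells beside cells in which MAPKAPK2, the gene of the kinase MK2, had been knocked out with CRISPR/Cas9. Each genotype was given 500 nM JQ1, a small molecule that displaces BET bromodomain proteins from acetylated chromatin, or DMSO for 48 h. The wild-type DMSO, wild-type JQ1, knockout DMSO and knockout JQ1 groups held 3 replicates each, measured by sequencing of total RNA after removal of ribosomal RNA. All groups grew in DMEM with serum, and the labels do not say how many knockout clones were used or whether replicates were separate cultures, so p-values measure the spread between these libraries, which may be technical. In such bulk RNA, fewer cells of a kind and less RNA per cell cannot be told apart.

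Eph receptors are receptor tyrosine kinases that bind ephrins on the surface of a touching cell, and the contact signals into both cells. Ephrin-A ligands are held by a lipid anchor and ephrin-B ligands cross the membrane. Semaphorins signal mainly through plexins, and most class 3 semaphorins need a neuropilin as co-receptor. These families steer axons and migrating cells, among them the neural crest cells from which melanocytes arise.

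The 12 libraries held 25316899 to 34594295 estimated counts. MAPKAPK2 stood at 87.9 to 120 CPM (counts per 1000000 of the library, scaled by TMM, a correction for library composition) in wild-type libraries and at 11.1 to 15.7 CPM in knockout libraries. Replicate 3 of knockout JQ1 stood apart: chi-square per degree of freedom was 23.8 and 25.1 against the other replicates of its group, while all other replicate pairs lay between 3.21 and 7.05. Of the 11 melanoma and melanocyte markers listed, 8 were testable and their sum ran from 1740 to 2680 CPM over all libraries, with SOX10, ERBB3 and CSPG4 present and the pigment genes TYR, TYRP1 and DCT below the low-count filter. PMEL and MLANA passed the filter at low levels, with means of 0.513 and 0.78 CPM in wild-type DMSO. The 4 fibroblast markers summed to 15.7 to 17.4 CPM in wild-type DMSO and 4.73 to 5.75 CPM in wild-type JQ1, and to 12.8 to 14.4 CPM and 3.29 to 4.02 CPM in the knockout; the 4 keratinocyte, 3 endothelial and 3 leukocyte markers summed to at most 7.12, 2.35 and 2.98 CPM in any library, with KRT1 at 0 counts in every library and KRT5, CDH5, PTPRC and CD3E below the filter. Their part in the results was not tested.

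Of the 51 genes, 41 passed the low-count filter and were tested. SEMA5B had no counts in any library, where 3 counts would be 0.0825 to 0.122 CPM. EFNA2, EPHA1, EPHA5, EPHA8, EPHA10, EPHB6, PLXNA4, SEMA4A and SEMA6D had counts below the filter, at most 15 in any library. Levels of different genes were compared roughly per kilobase of merged exon (GENCODE 29). That length covers all annotated exons of a gene and not the transcripts expressed, so the order is approximate. The receptors EPHA3 (38.5 ± 1.74 CPM per kb, SD, n = 3) and EPHA2 (31.3 ± 0.867) stood highest in wild-type DMSO. The secreted SEMA3B followed at 20.6 ± 1.28, then SEMA6B at 12.1 ± 0.695, SEMA3C at 10.0 ± 0.0996, PLXNB2 at 9.47 ± 0.647 and SEMA3A at 7.31 ± 0.105. SEMA3C and PLXNB2 lay within their spread of each other.

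JQ1 changed guidance genes in both directions, with gains among Eph receptors and losses led by secreted semaphorins, SEMA6B and PLXNB1. Of the 41 tested genes, 26 passed an adjusted p of 0.05 in wild-type cells, 14 higher and 12 lower, where 33.1% of all 21698 tested genes passed (16.9% higher, 16.2% lower). In the knockout 23 passed, 12 higher and 11 lower, beside 34.4% of all genes (16.7% higher, 17.8% lower). The median log2 fold change was 0.02 in wild-type cells (−0.03 over all genes) and 0.22 in the knockout (−0.00353 over all genes), and the median absolute change was 0.54 and 0.44 beside 0.29 and 0.30. A called change of at least 1 on the log2 scale was seen for 6 of the 41 members in wild-type cells, beside 6.51% of all genes. In the knockout it was seen for 7 of the 41, beside 7.42% of all genes. Calls in the same direction in both genotypes covered 22 of the 41 members, 12 higher and 10 lower, beside 25.2% of all genes. These were 22 of the 26 and 22 of the 23, and no member was called in opposite directions. Without replicate 3 of knockout JQ1, the knockout count was 22, with 10 higher and 12 lower. Over all genes, 7481 passed in the knockout without that library, beside 7472 with it.

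**Figure D1:**
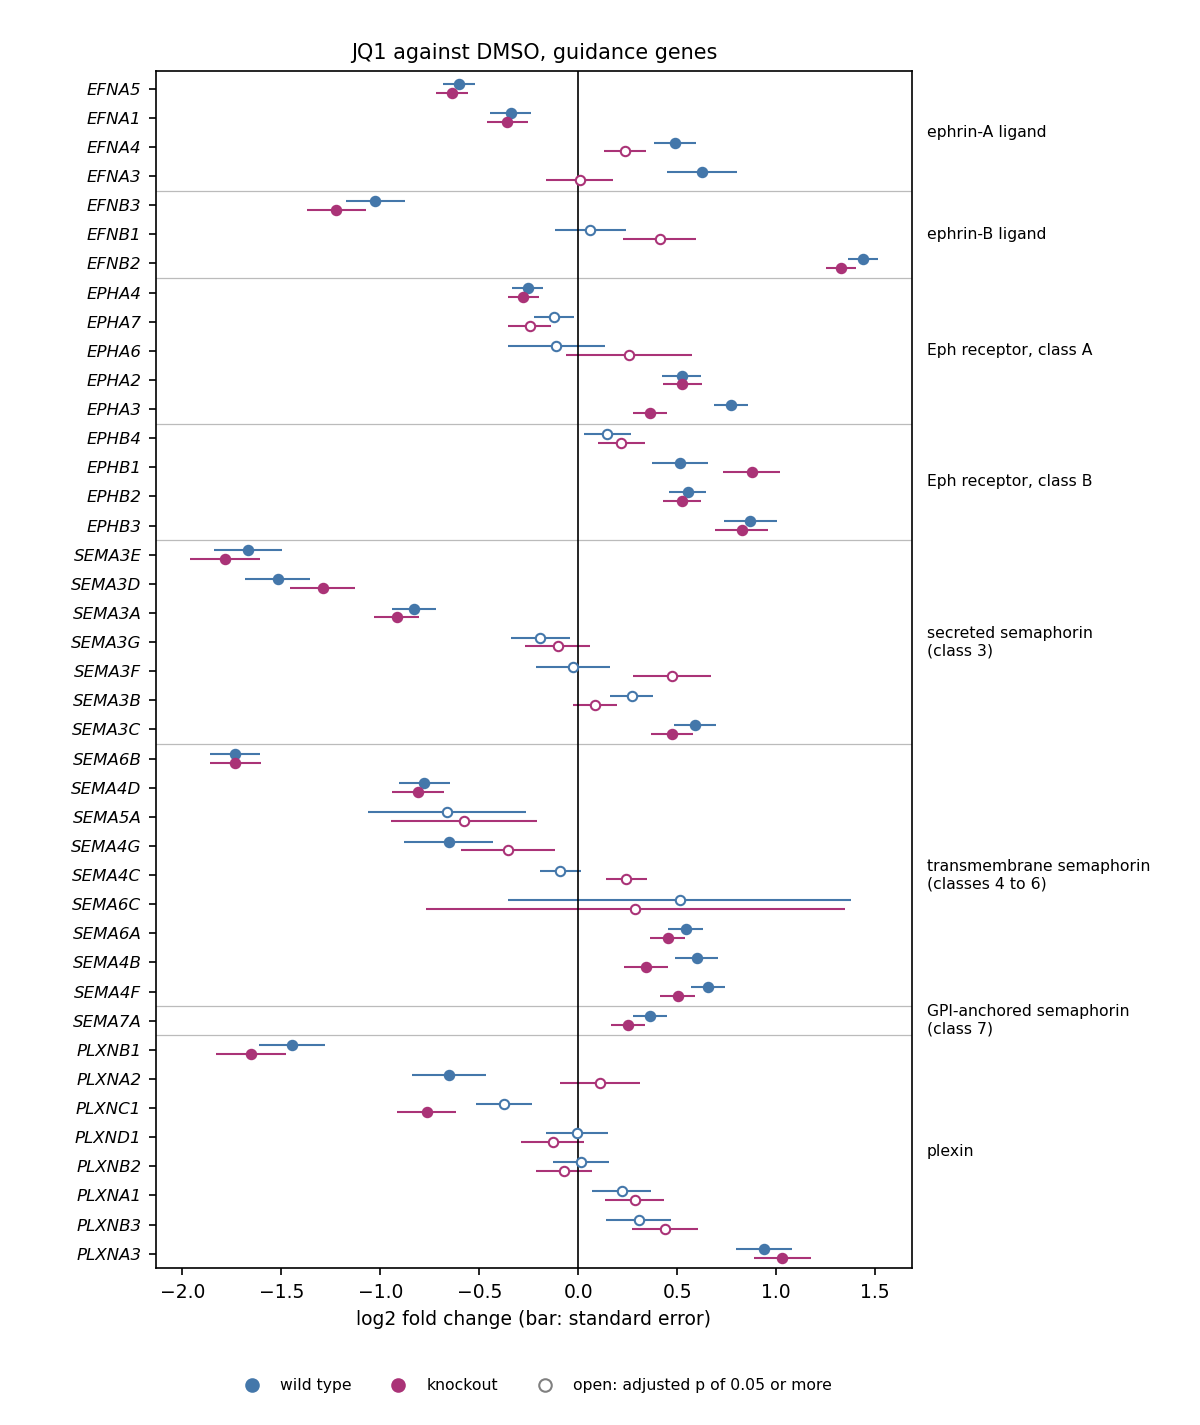
Log2 fold change of JQ1 against DMSO (horizontal axis) for the 41 tested guidance genes (rows, grouped by family) in wild-type and knockout cells; bars are standard errors and open points have an adjusted p of 0.05 or more. EFNB2 lies farthest to the right, at 1.44 and 1.33, and SEMA6B, SEMA3E, SEMA3D and PLXNB1 lie farthest to the left.

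Promoters are shown for the genes whose JQ1 change reached at least 1 on the log2 scale in either genotype and which had an entry in the RefSeq table (GRCh38.p14; 46 of the 51 members and 37 of the 41 tested had one), so that the bases ahead of genes that rose and fell can be read side by side. Each run is the 250 bases before the annotated start, 5′ to 3′ on the gene's strand; where a gene has several entries, the one nearest the GENCODE start was taken. Positions are chr13:106535663-106535912 (minus strand) for EFNB2, chrX:154458031-154458280 (plus) for PLXNA3, chr3:48430087-48430336 (minus) for PLXNB1, chr7:85187057-85187306 (minus) for SEMA3D and chr7:83649140-83649389 (minus) for SEMA3E. Capitals mark matches on either strand to 5 short motifs: the E-box, spelled CACGTG here, the AP-1 site, searched with the letters TGANTCA, the GC box as GGGCGG, the TATA box as TATAAA and the CCAAT box.
EFNB2: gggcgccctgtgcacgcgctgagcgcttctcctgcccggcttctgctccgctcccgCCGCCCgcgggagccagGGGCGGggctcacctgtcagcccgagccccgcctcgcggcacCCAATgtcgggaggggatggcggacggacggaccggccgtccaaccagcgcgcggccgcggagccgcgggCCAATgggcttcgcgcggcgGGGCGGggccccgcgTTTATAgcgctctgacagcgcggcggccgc
PLXNA3: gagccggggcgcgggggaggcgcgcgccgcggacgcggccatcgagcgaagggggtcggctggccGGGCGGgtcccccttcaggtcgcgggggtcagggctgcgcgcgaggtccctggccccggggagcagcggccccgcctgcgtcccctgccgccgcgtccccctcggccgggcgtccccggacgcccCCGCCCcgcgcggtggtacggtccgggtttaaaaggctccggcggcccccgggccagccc
PLXNB1: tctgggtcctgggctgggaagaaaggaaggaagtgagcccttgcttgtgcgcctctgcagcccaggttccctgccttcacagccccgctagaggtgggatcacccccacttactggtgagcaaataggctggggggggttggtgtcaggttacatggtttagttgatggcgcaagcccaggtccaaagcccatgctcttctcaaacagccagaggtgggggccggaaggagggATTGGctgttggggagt
SEMA3D: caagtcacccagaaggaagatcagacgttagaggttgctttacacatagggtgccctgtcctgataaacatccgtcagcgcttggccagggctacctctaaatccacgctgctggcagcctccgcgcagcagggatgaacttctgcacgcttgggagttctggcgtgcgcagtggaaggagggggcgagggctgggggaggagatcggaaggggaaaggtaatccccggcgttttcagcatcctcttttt
SEMA3E: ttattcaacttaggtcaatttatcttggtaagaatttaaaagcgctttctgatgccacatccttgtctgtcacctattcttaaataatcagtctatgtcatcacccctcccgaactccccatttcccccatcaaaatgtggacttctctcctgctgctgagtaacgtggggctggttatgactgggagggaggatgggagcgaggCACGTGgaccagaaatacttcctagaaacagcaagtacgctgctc
EFNB2 and PLXNA3, which rose, hold 40 and 41 CpG dinucleotides at 78.4% and 82.8% G+C. PLXNB1, SEMA3D and SEMA3E, which fell, hold 4, 13 and 6 at 59.6%, 57.6% and 46.4%. SEMA6B and EFNB3, which fell by at least 1 as well, had no entry. Among called members with smaller changes, CpG counts did not divide by direction. EFNA5 and SEMA4D, which fell, hold 41 and 6. EPHA3, which rose, holds 15, and EPHB2, which rose, holds 41 or 42 depending on the entry. EFNB2 has 3 GGGCGG, 2 CCAAT and 1 TATAAA match, PLXNA3 has 2 GGGCGG, PLXNB1 has 1 CCAAT, SEMA3E has 1 CACGTG and SEMA3D has none of the motifs. Of 35116 RefSeq promoters of this length, 42.6% hold GGGCGG, 32.0% CCAAT, 10.7% TATAAA, 6.6% TGANTCA and 6.3% CACGTG, and no motif searched is contained in another. The other PLXNB1 entry holds 37 CpG and 5 GGGCGG, so for PLXNB1 the CpG count depends on which start is taken; SEMA3D has a single entry, and the other SEMA3E entry holds 1 CpG.

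Among the ephrins, EFNB2 rose and EFNB3 fell with JQ1 in both genotypes. EFNB2, the ephrin-B ligand known for marking arterial endothelium (GRCh38 chromosome 13, 106489731 to 106535662, GENCODE 29), was at 21.4, 19.6 and 18.4 CPM in the wild-type DMSO libraries and at 56.2, 52.4 and 51.9 CPM with JQ1. The knockout libraries held 17.8, 16.8 and 19.7 CPM in DMSO and at 44.9, 45.8 and 45.3 CPM with JQ1. All JQ1 libraries lay above all DMSO libraries, and replicate 3 of knockout JQ1 lay among its group. The log2 fold change was 1.44 ± 0.075 (SE; adjusted p = 4.78e-09, Benjamini-Hochberg adjusted from the quasi-likelihood fit in edgeR) in wild-type cells and 1.33 ± 0.077 (adjusted p = 9.15e-09) in the knockout.

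EFNB3, a ligand studied in axon repulsion at the midline (chromosome 17, 7705202 to 7711378), went the other way. Its wild-type libraries were at 13.4, 11.2 and 11.8 CPM in DMSO and 6.53, 6.53 and 4.85 CPM with JQ1. Its knockout libraries were at 13.3, 12.9 and 15.1 CPM in DMSO and 5.67, 4.75 and 7.15 CPM with JQ1. The groups did not overlap in either genotype, and the log2 fold change was −1.03 ± 0.15 (adjusted p = 9.54e-05) and −1.22 ± 0.15 (adjusted p = 1.83e-05). EFNB1 was at 5.05 ± 0.467 and 5.27 ± 0.573 CPM (SD, n = 3) in wild-type DMSO and JQ1 and was not called. Of the 6 tested neighbours of EFNB3 on 17p13, 1 was higher and 2 lower with JQ1 in wild-type cells; DNAH2, a dynein heavy chain gene, changed by −1.58. Between genotypes EFNB3 differed by 0.18 in DMSO (adjusted p = 0.549), while 1 neighbour, DNAH2, was lower in the knockout (−1.21).

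The ephrin-A ligands were split. EFNA5 fell by 0.60 ± 0.081 (adjusted p = 4.62e-05) in wild-type cells and by 0.64 ± 0.081 (adjusted p = 2.44e-05) in the knockout, from 18.3, 19.9 and 19.6 CPM to 12, 13.5 and 12.6 CPM in the wild-type libraries. EFNA1 changed by −0.34 ± 0.10 (adjusted p = 0.0191) and −0.36 ± 0.10 (adjusted p = 0.0136). Those calls were small: the first was lost without wild-type DMSO replicate 1 or 3 or wild-type JQ1 replicate 1 or 3 (adjusted p 0.0594 to 0.0838), the second without knockout DMSO replicate 3 (0.0695) or knockout JQ1 replicate 2 (0.0685). EFNA2 was below the filter.

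EFNA3 and EFNA4 lie next to each other on 1q22, at 155078872 to 155087538 and 155063731 to 155069553 of chromosome 1, and EFNA1 follows at 155127460 to 155134857. EFNA4 was at 4.86, 4.96 and 4.67 CPM in wild-type DMSO, 6.47, 7.13 and 6.74 CPM in wild-type JQ1, 7.05, 6.8 and 7.06 CPM in knockout DMSO and 8.68, 7.1 and 8.8 CPM in knockout JQ1. EFNA3 was at 2.8, 2.23 and 2.34 CPM in wild-type DMSO, 4.49, 3.93 and 2.99 CPM in wild-type JQ1, 3.98, 4.12 and 3.69 CPM in knockout DMSO and 3.88, 3.25 and 4.65 CPM in knockout JQ1. For both genes the wild-type DMSO libraries were the lowest of all.
The JQ1 change in wild-type cells was 0.49 ± 0.11 (adjusted p = 0.00264) for EFNA4 and 0.63 ± 0.18 (adjusted p = 0.0131) for EFNA3. The knockout difference in DMSO, which shares the wild-type DMSO libraries with it, was 0.53 ± 0.11 (adjusted p = 0.00568) and 0.67 ± 0.18 (adjusted p = 0.0277). EFNA3 was not called for JQ1 without wild-type DMSO replicate 2 (adjusted p = 0.0503) or wild-type JQ1 replicate 1 (0.0753), nor for the knockout on leaving out any 1 knockout DMSO library, or replicate 2 or 3 of wild-type DMSO, (0.0525 to 0.106). AL691442.1, an annotated gene that overlaps both on the same strand, stood at 0.114 CPM in wild-type DMSO and 0.404 CPM in wild-type JQ1, so reads of the 3 genes may be shared between them. ADAM15, a metalloprotease gene just ahead of EFNA4, rose with JQ1 by 0.87 in both genotypes and was 0.48 and 0.49 higher in the knockout in DMSO and JQ1. It was not among the genes planned to be named. The other tested neighbours there, DCST1, DCST1-AS1, SLC50A1, DPM3 and KRTCAP2, were not called for drug or genotype.

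Of the 9 Eph receptors tested, 5 rose, 1 fell and 3 were not called with JQ1 in each genotype, beside 16.9% of all genes higher and 16.2% lower in wild-type cells and 16.7% and 17.8% in the knockout. All 3 class B receptors called, EPHB1, EPHB2 and EPHB3, rose. EPHB3 went from 13.1, 14.8 and 13.1 CPM to 27.3, 25.7 and 21.7 CPM in the wild-type libraries and from 13.1, 14.7 and 13.5 CPM to 19.5, 23.7 and 29.9 CPM in the knockout, with log2 fold changes of 0.87 ± 0.13 (adjusted p = 1.51e-04) and 0.83 ± 0.13 (adjusted p = 2.16e-04). EPHB2 rose by 0.55 ± 0.095 (adjusted p = 3.84e-04) and 0.53 ± 0.096 (adjusted p = 5.76e-04). EPHB1, at 3.08 to 4.23 CPM in wild-type DMSO, rose by 0.51 ± 0.14 (adjusted p = 0.0122) in wild-type cells, a call lost without wild-type DMSO replicate 2 (adjusted p = 0.0554), and by 0.88 ± 0.15 (adjusted p = 2.53e-04) in the knockout. EPHB4, the receptor of EFNB2, was at 43.9 ± 2.82 CPM in wild-type DMSO and 48.6 ± 4.33 CPM in wild-type JQ1 (SD, n = 3) and was not called.

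EPHA2 and EPHA3, the class A receptors with the highest level per kilobase, rose as well. EPHA3 was at 269, 246 and 255 CPM in wild-type DMSO and 419, 448 and 447 CPM in wild-type JQ1, a change of 0.77 ± 0.086 (adjusted p = 8.41e-06). In the knockout it was at 379, 337 and 353 CPM in DMSO and 494, 497 and 381 CPM with JQ1, a change of 0.36 ± 0.086 (adjusted p = 0.00429). Replicate 3 was the low JQ1 library there, and without it the change was 0.48 (adjusted p = 6.8e-06); scaling by library totals alone ended the knockout call (adjusted p = 0.0508). EPHA2, at 126, 133 and 131 CPM in wild-type DMSO and 193, 191 and 175 CPM in wild-type JQ1, rose by 0.52 ± 0.10 (adjusted p = 9.24e-04) and in the knockout by 0.53 ± 0.10 (adjusted p = 8.28e-04). Knockout JQ1 held 140, 139 and 193 CPM of EPHA2, and without the third library the change was 0.35 (adjusted p = 1.16e-04).
EPHA4 was the receptor that fell, with changes of −0.26 ± 0.080 (adjusted p = 0.0225) and −0.28 ± 0.079 (adjusted p = 0.0124). The wild-type call was lost without wild-type DMSO replicate 1 or 3 or wild-type JQ1 replicate 3 (adjusted p 0.0697 to 0.0928), and both calls were lost with the authors' normalization factors as offsets. EPHA6 and EPHA7 were not called with JQ1.

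**Figure D2:**
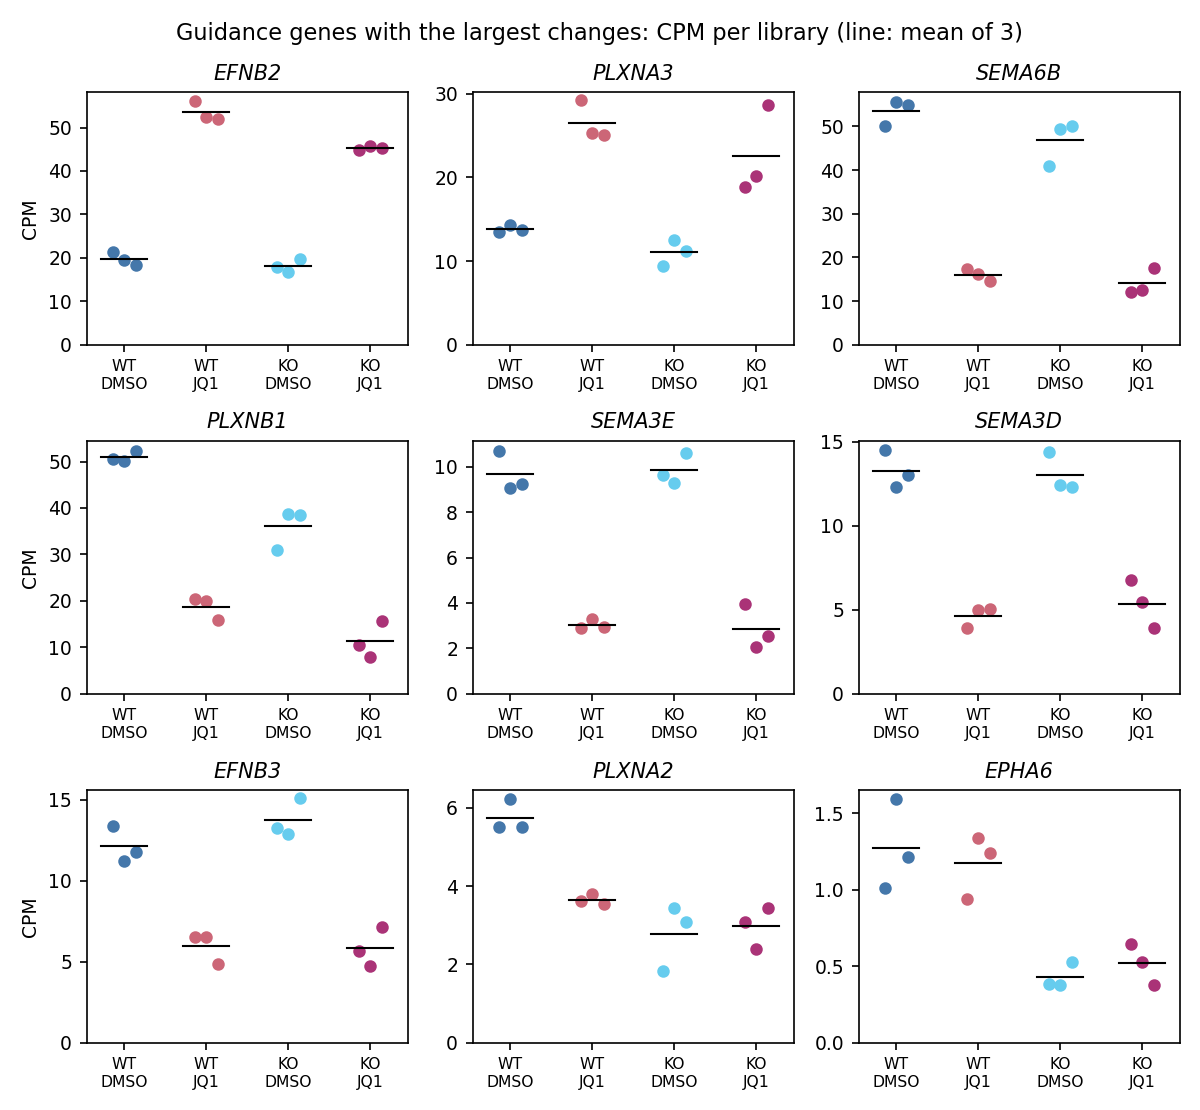
CPM in each library (vertical axes, from 0) for the 9 guidance genes with a called log2 change of at least 1 in any comparison; points are the 3 replicates of each group and lines their mean. The JQ1 and DMSO libraries of EFNB2, PLXNA3, SEMA6B, PLXNB1, SEMA3E, SEMA3D and EFNB3 do not overlap within a genotype, and EPHA6 is at or below 0.647 CPM in every knockout library.

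Of the 7 secreted class 3 semaphorins tested, SEMA3A, SEMA3D and SEMA3E fell and SEMA3C rose in both genotypes. Over all genes, 16.9% were higher and 16.2% lower in wild-type cells, and 16.7% and 17.8% in the knockout. SEMA3E, a ligand that can bind plexin D1 without a neuropilin (chromosome 7, 83363238 to 83649113), was at 10.7, 9.06 and 9.24 CPM in wild-type DMSO and 2.89, 3.3 and 2.93 CPM with JQ1. In the knockout it was at 9.65, 9.3 and 10.6 CPM in DMSO and 3.96, 2.07 and 2.53 CPM with JQ1. The groups were far apart, with log2 fold changes of −1.67 ± 0.17 (adjusted p = 3.74e-06) and −1.79 ± 0.18 (adjusted p = 2.03e-06).
SEMA3D (chromosome 7, 84995553 to 85186855) was at 14.5, 12.3 and 13 CPM in wild-type DMSO and 3.89, 5.01 and 5.03 CPM with JQ1. Knockout libraries held 14.4, 12.4 and 12.3 CPM in DMSO and 6.74, 5.44 and 3.89 CPM with JQ1. Again no JQ1 library reached a DMSO library, and the changes were −1.52 ± 0.16 (adjusted p = 6.17e-06) and −1.29 ± 0.16 (adjusted p = 2.42e-05).
SEMA3A, the classic repellent of sensory axons, fell from 69.6, 68 and 67.8 CPM to 37.9, 38.5 and 39.2 CPM in the wild-type libraries. Its change was −0.83 ± 0.11 (adjusted p = 4.66e-05), and −0.92 ± 0.11 (adjusted p = 1.75e-05) in the knockout. SEMA3C went from 63, 63.3 and 62.1 CPM to 88.7, 97.8 and 97.4 CPM, a change of 0.59 ± 0.11 (adjusted p = 5.37e-04), and of 0.47 ± 0.11 (adjusted p = 0.00263) in the knockout. SEMA3B, SEMA3F and SEMA3G were not called with JQ1.

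SEMA3C, SEMA3E, SEMA3A and SEMA3D lie in that order on chromosome 7, SEMA3C from 80742538 to 80922359 and SEMA3A from 83955777 to 84492724, and the tested genes among them did not move as a block. HGF, the ligand of the receptor MET (81699008 to 81770438), stood at 24.7 CPM in wild-type DMSO and 0.431 CPM with JQ1, and at 18.2 and 0.409 CPM in the knockout. Its log2 fold changes were −5.82 (adjusted p = 9.55e-12) and −5.45 (adjusted p = 2.55e-11). CACNA2D1, a calcium channel subunit gene, changed by −0.23 (adjusted p = 0.06) and −0.42 (adjusted p = 0.00251). PCLO, which encodes a presynaptic scaffold and directly precedes SEMA3E among tested genes, changed by 0.34 (adjusted p = 0.00903) and 0.19 (adjusted p = 0.128). The noncoding AC074183.2, between SEMA3A and SEMA3D, changed by −0.88 (adjusted p = 0.0321) and −0.17 (adjusted p = 0.725) from 1.18 CPM. HGF, CACNA2D1, PCLO and AC074183.2 were named after their values were seen.

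**Figure D3:**
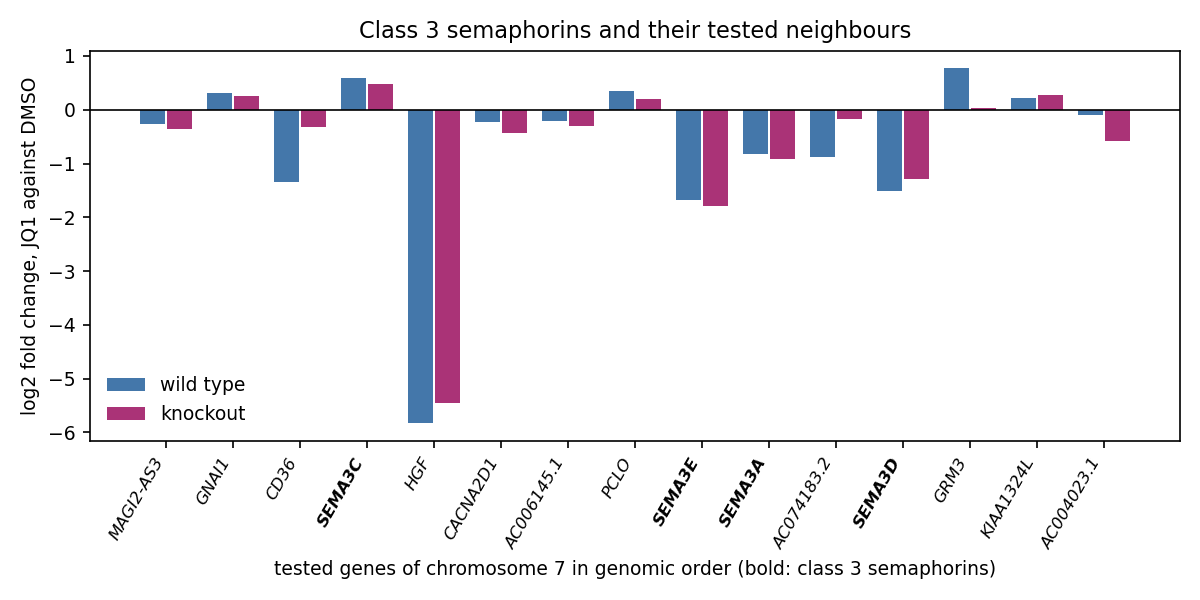
Log2 fold change of JQ1 against DMSO (vertical axis) in wild-type and knockout cells for the tested genes around the class 3 semaphorins of chromosome 7, in genomic order, spaced by order and not by distance; semaphorins are in bold. HGF shows the longest bars drawn, SEMA3E, SEMA3A and SEMA3D are below 0 and SEMA3C above. AC008163.1, at 0.0262 CPM in knockout JQ1, was below 3 counts per library and is not drawn. It went from 4.04 to 0.104 CPM in wild-type cells and from 3.24 CPM in knockout DMSO, with changes of −5.17 and −6.83.

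Membrane-bound semaphorins were divided. SEMA6B (chromosome 19, 4542593 to 4559808), a transmembrane ligand of class A plexins, was at 50, 55.7 and 54.8 CPM in wild-type DMSO and 17.3, 16.3 and 14.6 CPM with JQ1. Knockout values were 40.9, 49.5 and 50.1 CPM in DMSO and 12, 12.6 and 17.5 CPM with JQ1. No JQ1 library reached a DMSO library, and the changes were −1.74 ± 0.13 (adjusted p = 1.23e-07) and −1.73 ± 0.13 (adjusted p = 1.19e-07); without knockout JQ1 replicate 3, the higher of its group, the second was −1.93. SEMA6A, of the same class, rose by 0.54 ± 0.087 (adjusted p = 2.29e-04) and 0.45 ± 0.089 (adjusted p = 0.00105).

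SEMA4D, the ligand of PLXNB1, fell in both genotypes. It went from 14.5, 14.8 and 14 CPM to 8.86, 9.28 and 7.19 CPM in wild-type libraries, a change of −0.78 ± 0.13 (adjusted p = 2.87e-04), and by −0.81 ± 0.13 (adjusted p = 2.16e-04) in the knockout. SEMA4F rose by 0.65 ± 0.088 (adjusted p = 4.45e-05) and 0.50 ± 0.087 (adjusted p = 3.97e-04). SEMA4B rose by 0.60 ± 0.11 (adjusted p = 6.17e-04) and 0.34 ± 0.11 (adjusted p = 0.026), and SEMA7A, a lipid-anchored ligand of PLXNC1, by 0.36 ± 0.084 (adjusted p = 0.004) and 0.25 ± 0.084 (adjusted p = 0.0316). The knockout calls of SEMA4B and SEMA7A were lost without knockout JQ1 replicate 3 (0.19 and 0.17, adjusted p 0.126 and 0.111) and without knockout DMSO replicate 1 (0.083 and 0.0766) or replicate 2 (0.0763 and 0.0937), and both were lost with scaling by library totals and with only the knockout libraries fitted.
SEMA4G, at 7.99, 9.14 and 4.7 CPM in wild-type DMSO and 4.33, 5.71 and 3.82 CPM in wild-type JQ1, was the called gene whose groups overlapped. Its change of −0.65 ± 0.22 (adjusted p = 0.036) was not called without wild-type DMSO replicate 1 or 2 or wild-type JQ1 replicate 1 or 3 (adjusted p 0.109 to 0.17). SEMA4C was not called with JQ1, and SEMA5A and SEMA6C, both under 1 CPM in every library, had standard errors of 0.37 to 1.06.

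Of the 8 plexins tested, PLXNA3 rose and PLXNB1 fell in both genotypes. In each genotype 3 of the 8 (37.5%) were called, 1 higher and 2 lower. That share lay near the 33.1% of all genes called in wild-type cells and 34.4% in the knockout. PLXNB1, the SEMA4D receptor (chromosome 3, 48403854 to 48430051), was at 50.6, 50.1 and 52.2 CPM in wild-type DMSO and 20.4, 19.9 and 15.9 CPM with JQ1. In the knockout it was at 31, 38.6 and 38.5 CPM in DMSO and 10.6, 7.91 and 15.6 CPM with JQ1. JQ1 libraries were all below DMSO libraries, with changes of −1.45 ± 0.17 (adjusted p = 1.17e-05) and −1.65 ± 0.18 (adjusted p = 4.38e-06); without knockout JQ1 replicate 3 the latter was −1.96.
PLXNA3, a receptor used by class 3 semaphorins with neuropilins (chromosome X, 154458281 to 154477779), was at 13.5, 14.3 and 13.7 CPM in wild-type DMSO and 29.2, 25.3 and 25 CPM with JQ1. Its knockout libraries held 9.46, 12.5 and 11.2 CPM in DMSO and 18.8, 20.1 and 28.6 CPM with JQ1. The rise was 0.94 ± 0.14 (adjusted p = 1.21e-04) and 1.03 ± 0.14 (adjusted p = 5.87e-05); the highest knockout library was replicate 3, without which the rise was 0.82 (adjusted p = 2.66e-05).
PLXNC1, the SEMA7A receptor, fell by 0.77 ± 0.15 (adjusted p = 9.51e-04) in the knockout, while in wild-type cells its change was −0.37 (adjusted p = 0.058); the difference between the genotypes had an adjusted p of 0.641. PLXNA1, PLXNB2, PLXNB3 and PLXND1 were not called in any comparison. In knockout JQ1 each of these 4 was highest in replicate 3, for example PLXNA1 at 47.8, 53.8 and 79.2 CPM.

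The members that fell with JQ1 in wild-type cells had a longer median gene span than those that rose. The median span in GENCODE 29 was 147 kb for the 12 lower members, 38.8 kb for the 14 higher and 32.6 kb for the 15 not called in wild-type cells, beside 35.9, 23.7 and 16.6 kb over all tested genes matched. The order lower, higher, not called was thus the same in the members as in all genes. The spans themselves overlapped widely. They ran from 6.18 to 537 kb for lower members, 5.82 to 663 kb for higher and 9.99 to 938 kb for those not called.

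Fewer guidance genes differed between knockout and wild-type cells than between JQ1 and DMSO. EPHA6 and PLXNA2 were lower in the knockout by the most in DMSO, and EPHA6 and PLXNB1 in JQ1. As the number of knockout clones is not given, differences between clones cannot be told apart from loss of MAPKAPK2. In DMSO 8 of the 41 members (19.5%) passed, 4 higher (EFNA3, EFNA4, EPHA3, EPHA4) and 4 lower (EPHA6, EPHA7, PLXNA2, SEMA3G), beside 7.92% of all genes (3.47% higher, 4.44% lower). In JQ1 8 of the 41 (19.5%) passed, 2 higher (EPHA4, SEMA4C) and 6 lower (EPHA6, EPHA7, PLXNB1, SEMA3B, SEMA3G, SEMA4B), beside 8.57% (3.01% higher, 5.56% lower). The medians were −0.08 and −0.10 on the log2 scale, beside values nearer 0 over all genes (−0.00485 and −0.00151). Called in both, and in the same direction, were 4 of the 41 members, 1 higher and 3 lower, beside 4.36% of all genes.
These counts were less steady than those for JQ1. In DMSO the count was 5 without knockout DMSO replicate 1 and 14 (4 higher, 10 lower) without knockout JQ1 replicate 3. In JQ1 it was 0 when only the JQ1 libraries were fitted, 10 (1 higher, 9 lower) without knockout JQ1 replicate 3, 4 without knockout JQ1 replicate 1 or wild-type JQ1 replicate 1 or 3, 3 without knockout JQ1 replicate 2 and 2 without wild-type JQ1 replicate 2. The calls over all genes moved as well. In DMSO they were 1718 in the main fit, 1295 without knockout DMSO replicate 1 and 2650 without knockout JQ1 replicate 3. In JQ1 they were 1860 in the main fit and 922 when only the JQ1 libraries were fitted. Without knockout JQ1 replicate 3 they were 2331, and without wild-type JQ1 replicate 2 they were 1223.

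**Figure D4:**
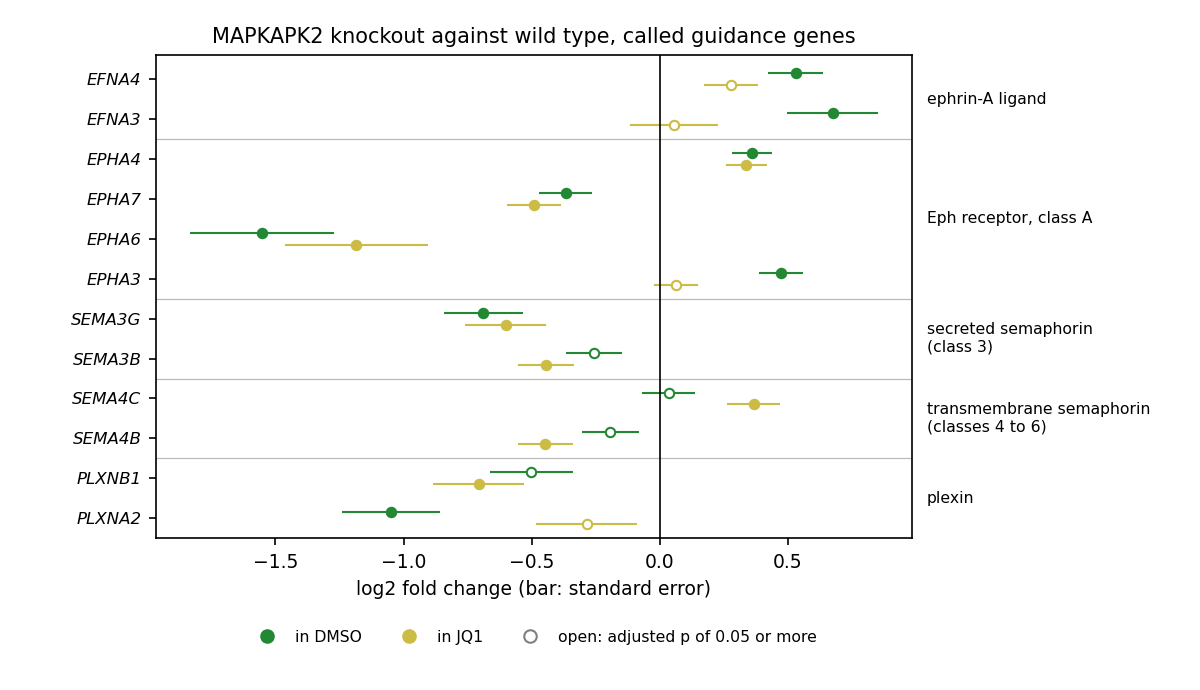
Log2 fold change of knockout against wild type (horizontal axis) in DMSO and in JQ1 for the 12 guidance genes called in either (rows, by family); bars are standard errors and open points have an adjusted p of 0.05 or more. EPHA6 lies farthest to the left in both treatments, at −1.55 and −1.18, and all 12 genes have the same sign in both treatments.

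Among the receptors, EPHA6 (chromosome 3, 96814581 to 97752460) was lower in the knockout and EPHA4 higher in both treatments. EPHA6, a low-level gene, was at 1.01, 1.59 and 1.21 CPM in wild-type DMSO and 0.385, 0.378 and 0.527 CPM in knockout DMSO, a difference of −1.55 ± 0.28 (adjusted p = 0.00247). With JQ1 it was at 0.942, 1.34 and 1.24 CPM in wild-type and 0.647, 0.527 and 0.38 CPM in knockout libraries, a difference of −1.18 ± 0.28 (adjusted p = 0.0154). The genotypes did not overlap in either treatment, yet the JQ1 call was lost without knockout JQ1 replicate 3 or wild-type JQ1 replicate 2 or 3 (adjusted p 0.0536 to 0.0629).
EPHA4 was at 16, 15.5 and 16.3 CPM in wild-type and 20.5, 20.8 and 20.2 CPM in knockout DMSO libraries. The difference was 0.36 ± 0.078 (adjusted p = 0.00912), and 0.34 ± 0.080 (adjusted p = 0.0159) with JQ1, the latter lost without knockout JQ1 replicate 1 or 2 or wild-type JQ1 replicate 3 (adjusted p 0.0593 to 0.075). EPHA3, whose values are given above, was higher in the knockout in DMSO by 0.47 ± 0.086 (adjusted p = 0.00257) and differed by 0.06 (adjusted p = 0.757) with JQ1. EPHA7 was lower in both treatments, at −0.37 ± 0.10 (adjusted p = 0.044) and −0.49 ± 0.11 (adjusted p = 0.0089); in DMSO it was not called without any 1 of 10 libraries, all except knockout JQ1 replicates 1 and 3 (adjusted p 0.0518 to 0.19).

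PLXNA2, a receptor for semaphorins of classes 3 and 6 (chromosome 1, 208022242 to 208244320), was at 5.51, 6.23 and 5.5 CPM in wild-type DMSO and 1.83, 3.43 and 3.09 CPM in knockout DMSO. With JQ1 it was at 3.61, 3.79 and 3.55 CPM in wild-type and 3.08, 2.39 and 3.45 CPM in knockout libraries. Wild-type DMSO was the high group, and all libraries of the other groups lay between 1.83 and 3.79 CPM. The knockout difference in DMSO was −1.05 ± 0.19 (adjusted p = 0.00264) and the JQ1 change in wild-type cells, against the same DMSO libraries, was −0.65 ± 0.19 (adjusted p = 0.0138; 0.0535 without wild-type DMSO replicate 2). In JQ1 the genotypes differed by −0.28 (adjusted p = 0.47), and in the knockout JQ1 gave 0.11 (adjusted p = 0.728).
PLXNA2 was the 1 member on chromosome 1 distal to the edited gene, 1288 kb past its end. Of 299 tested genes distal to MAPKAPK2, 128 (42.8%) were lower in the knockout in DMSO and 0 higher, with a median of −0.39, and 138 (46.2%) were lower in JQ1, with a median of −0.37. All 6 nearest tested neighbours of PLXNA2 had negative values in DMSO, from −1.0 (LAMB3, a laminin chain gene, adjusted p = 6.28e-04) to −0.28, and 2 were called lower. The part of that chromosome arm in the value of PLXNA2 was not tested.

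The other knockout differences were in semaphorins and PLXNB1. SEMA3G, at 4.38, 3.36 and 3.93 CPM in wild-type DMSO and 1.99, 2.54 and 2.74 CPM in knockout DMSO, was lower in the knockout (−0.69 ± 0.15, adjusted p = 0.0111), a call lost when the first DMSO library of the knockout (0.0649) or of the wild type (0.072) was left out. With JQ1 it differed by −0.60 ± 0.16 (adjusted p = 0.0288), and leaving out any 1 of the 6 JQ1 libraries ended that call (adjusted p 0.0506 to 0.104). PLXNB1 differed by −0.71 ± 0.18 with JQ1 (adjusted p = 0.0224) and by −0.50 ± 0.16 in DMSO (adjusted p = 0.0773). Without knockout JQ1 replicate 3 the former was −1.01 (adjusted p = 2.11e-04), and without knockout JQ1 replicate 1 or 2 or wild-type JQ1 replicate 1 or 2 it was not called (adjusted p 0.068 to 0.0889).
With JQ1, SEMA3B was lower in the knockout (−0.44 ± 0.11, adjusted p = 0.0207), from 149, 149 and 131 CPM in wild-type to 88.4, 98.8 and 128 CPM in knockout libraries. SEMA4B was lower (−0.45 ± 0.11, adjusted p = 0.0177) and SEMA4C higher by 0.37 ± 0.10 (adjusted p = 0.039). Each of these was lost without some libraries: SEMA3B without knockout JQ1 replicate 1 or 2 or wild-type JQ1 replicate 1 or 2 (0.0764 to 0.0862), SEMA4B without knockout JQ1 replicate 1 or 2 or wild-type JQ1 replicate 2 (0.0741 to 0.097), and SEMA4C without knockout JQ1 replicate 2 or 3 or any wild-type JQ1 library (0.0508 to 0.165).

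The JQ1 response of the 2 genotypes was compared directly by the interaction of genotype and drug. No member passed in edgeR (lowest adjusted p = 0.309, EPHA3) or DESeq2, beside 0.134% of all genes in edgeR. At an unadjusted p under 0.05 there were 4 members by edgeR and 4 by DESeq2. In edgeR that is 4 of the 41 tested members, which lay near the 8.37% of all genes. The edgeR genes were EFNA3 (−0.62 ± 0.25, knockout response minus wild-type response), EPHA3 (−0.41 ± 0.12), PLXNA2 (0.76 ± 0.28) and SEMA4C (0.33 ± 0.15). Without a low-count filter EPHA3 passed, with an adjusted p of 0.0121. In that setting 236 of all genes passed for the interaction, beside 29 in the main fit.

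Genes that act with these families were taken from 3 lists written from general knowledge, with earlier results of these data already known. Of 25 semaphorin co-receptors and plexin signalling genes, 22 were tested; 13 rose and 0 fell with JQ1 in wild-type cells (median 0.38), and 11 rose and 3 fell in the knockout (median 0.27). For this and the next lists, the shares over all tested genes were 16.9% higher and 16.2% lower in wild-type cells and 16.7% and 17.8% in the knockout, and the lists themselves were not tested. DPYSL3, a collapsin response mediator that acts on the cytoskeleton, rose by 1.47 ± 0.053 (adjusted p = 1.19e-10) and 1.17 ± 0.053 (adjusted p = 8.92e-10). The adhesion molecule L1CAM, a SEMA3A co-receptor, rose by 0.88 ± 0.11 and 0.99 ± 0.12 (adjusted p = 2.1e-05 and 1.12e-05). The kinase gene CDK5 (0.46 and 0.39), the neuropilin NRP2 (0.39 and 0.38) and the actin-severing CFL1 (0.60 and 0.58) rose in both genotypes as well.
The neuropilin NRP1, co-receptor of class 3 semaphorins, rose by 0.47 ± 0.056 (adjusted p = 1.43e-05) with JQ1 in wild-type cells and changed by 0.14 (adjusted p = 0.0708) in the knockout, with an interaction adjusted p of 0.203. Knockout cells held less NRP1, with differences of −0.75 ± 0.057 in DMSO and −1.08 ± 0.057 in JQ1 (adjusted p = 1.06e-06 and 1.81e-08), and less L1CAM (−1.03 ± 0.12 and −0.92 ± 0.11, adjusted p = 4.04e-05 and 6.75e-05). Of the 22 genes, 3 were higher and 2 lower in the knockout in DMSO, and 2 were higher and 6 lower in JQ1, beside 3.47% and 4.44% of all genes in DMSO and 3.01% and 5.56% in JQ1. CRMP1 was higher in both treatments (1.77 and 0.76). FARP1 differed by 0.38 in DMSO and 0.16 (adjusted p = 0.166) in JQ1, DPYSL3 by −0.03 (adjusted p = 0.836) and −0.33, and MET, the HGF receptor, by −0.12 (adjusted p = 0.45) and −0.44.

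Of the 22 Eph and ephrin signalling genes, all tested, 5 rose and 6 fell with JQ1 in wild-type cells (median −0.05), and 4 rose and 8 fell in the knockout (median −0.13). The kinases ABL2 (−0.60 and −0.63) and SRC (−0.77 and −0.99) fell in both genotypes and the adaptor NCK2 rose (0.65 and 0.66). VAV3, a guanine nucleotide exchange factor, fell in wild-type cells (−1.87 ± 0.21, adjusted p = 7.85e-06) and in the knockout (−3.92 ± 0.21, adjusted p = 3.44e-09), and was the 1 gene of the 3 lists with a called interaction (−2.06 ± 0.31, adjusted p = 0.0182). In DMSO VAV3 was 1.83 ± 0.17 higher in the knockout (adjusted p = 5.58e-06), at 12.7 CPM beside 3.57 CPM in wild-type cells. With JQ1 its genotypes differed by −0.23 (adjusted p = 0.696), at 0.837 CPM in the knockout and 0.972 CPM in wild-type cells. Of the list, 2 genes were higher in the knockout in DMSO, the other being TIAM1 (0.23), and 0 lower. In JQ1 0 were higher and 2 lower, SRC (−0.45, and −0.23 with adjusted p = 0.22 in DMSO) and the ephexin gene NGEF (−1.0, and −0.76 with adjusted p = 0.0543 in DMSO). Over all tested genes, 3.47% were higher and 4.44% lower in the knockout in DMSO, and 3.01% and 5.56% in JQ1.

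In the list of other guidance families (slits, robos, netrins, DCC and UNC5 receptors, RGM), 19 of 22 genes were tested; 5 rose and 3 fell with JQ1 in wild-type cells, and 5 rose and 4 fell in the knockout. Both ROBO4 (−2.92 ± 0.22 and −2.96 ± 0.26, adjusted p = 2.2e-07 and 5.88e-07) and the netrin NTN4 (−1.07 ± 0.11 and −1.40 ± 0.11, adjusted p = 2.43e-06 and 2.66e-07) fell in both genotypes. SLIT2, a robo ligand (0.54 and 0.93), its receptor ROBO1 (0.58 and 0.36) and NTN1 (1.02 and 1.30) rose in both. In DMSO 1 was higher and 5 lower in the knockout, among them NEO1 (0.57), SLIT2 (−0.46), ROBO2 (−2.18) and UNC5D, which fell under 3 counts per library (0, 0.0687 and 0.0351 CPM, beside 0.387, 0.283 and 0.275 CPM in wild-type DMSO). In JQ1 2 were higher and 5 lower, among them NEO1 (0.48), NTN4 (−0.66, and −0.33 with adjusted p = 0.0615 in DMSO), NTNG2 (−1.30, and −0.88 in DMSO), ROBO2 (−1.36) and UNC5D (−2.39). The knockout shares over all tested genes were 3.47% higher and 4.44% lower in DMSO, and 3.01% and 5.56% in JQ1.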

How the data were processed

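RNA of 12 A375 libraries was sequenced after ribosomal RNA removal, with a directional kit per the labels' protocols. The authors deposited estimated counts per gene symbol, which were rounded here; the normalized signal they deposited (rounded count divided by a factor per gene and library) served 1 alternative. The submitters' processing notes name Trim Galore, cutadapt, FastQC, MultiQC, kallisto, DESeq2 and GRCh38.p10; the annotation and the use of strand are not given in the sources used here. Of the members, 29 overlap another gene and 23 a gene on the opposite strand, where reads may not be separable.

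Low counts were removed with filterByExpr, leaving 21698 genes. Libraries were scaled with TMM, and all 12 entered a model with a term per group in edgeR 4.0.16 (quasi-likelihood test, two-sided, run in R 4.3.3 with limma 3.58.1). Benjamini-Hochberg adjustment covered all tested genes, with a threshold of 0.05. SE is the absolute log2 fold change over the square root of F. The code was tested on simulated counts. Alternatives were DESeq2 1.42.0, other scalings and filters, fewer samples, a replicate block, a threshold of 0.01 and leaving out each library.

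Members and lists were chosen with earlier results of these data known. Members with a called change of at least 1 (log2) are given per library, other called members with SE and adjusted p, and up to 4 genes per list and contrast by smallest adjusted p. Group labels follow the treatment field (DMSO), although titles call these samples untreated. Coordinates came by symbol from GENCODE 29 (GRCh38). Same-numbered replicates were checked for pairing and were not paired.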

Additional observations from a re-analysis of the deposited data

How the results depend on the processing

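Of 65 member calls, 43 held in all of up to 21 alternatives, 22 were lost in at least 1 and 0 changed direction. The members called with JQ1 stayed within 1.5 times of the reported count in every alternative run, and leaving out 1 library gave 22 to 30 in wild-type cells and 21 to 28 in the knockout. Over all genes, leaving out 1 library gave 5647 to 8455 calls with JQ1 in wild-type cells and 6286 to 7481 in the knockout. The 8 members called for the knockout in DMSO became 5 at an adjusted p of 0.01, 14 without a low-count filter and 13 with only the groups compared, and 5 to 14 when a library was left out. The 8 called for the knockout in JQ1 became 1 at 0.01 and 0 with only the groups compared, and 2 to 10 when a library was left out. For the interaction 0 became 1 without a low-count filter (EPHA3, −0.43) and stayed 0 with each library left out. Over all genes, the interaction had 236 calls without that filter, beside 29 in the main fit. The cause of these shifts was not tested. Scaling by library totals moved the median of all genes with JQ1 in wild-type cells from −0.03 to −0.16. With the replicate block the counts were 26 and 22 with JQ1, 7 and 7 for the knockout and 0 for the interaction. Over all genes that block gave 6789 and 7136 with JQ1, 1487 and 1569 for the knockout and 21 for the interaction. Of 18 same-numbered pairs, 0 had deviations correlated above 0.1 (−0.115 to 0.0786), and 2 of 12 libraries correlated best with their own number. The members below the filter had at most 15 counts in any library, too few to test.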
